A study of Homo sapiens with 6 samples.

Results

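Nonsense-mediated decay (NMD) factors are the proteins that carry out NMD, the pathway by which cells destroy messenger RNAs (mRNAs) whose translation ends too early. The group described here is defined by gene symbol and holds UPF1, UPF2, UPF3A, UPF3B, SMG1, SMG5, SMG6, SMG8 and SMG9. These are 9 of the 35580 genes to which the deposited transcripts could be joined, and all 9 were among the 15223 genes with enough counts to test. The measurements come from RNA sequencing of Rh30, an established cell line of alveolar rhabdomyosarcoma that is positive for the PAX3-FOXO1 gene fusion. A control group of 3 libraries was set against 3 libraries of the same line with knock-down of DDX5, labelled siDDX5. DDX5 encodes a DEAD-box RNA helicase. The series calls the libraries biological replicates, and the labels give neither the time after knock-down nor the kind of control used. Nothing in the labels says that the replicates were separate cultures, so the p-values measure the spread between these libraries. Whether a lower level reflects less RNA per cell or fewer cells of one kind cannot be told apart in bulk RNA.

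In NMD, a ribosome that stops upstream of an exon junction complex, the protein mark left behind by splicing, allows the RNA helicase UPF1 to act on the transcript. UPF2 and the UPF3 proteins bridge UPF1 and that complex, and the kinase SMG1, held in check by SMG8 and SMG9, phosphorylates UPF1. Phosphorylated UPF1 binds the endonuclease SMG6 and the adaptor SMG5, and the transcript is cut or deadenylated and decapped. The mRNAs of several NMD factors are themselves known substrates of the pathway, so that the pathway adjusts its own components. In muscle precursor cells UPF1 is shared between NMD and Staufen-mediated decay, whose balance shifts during differentiation. DDX5 protein has been described to bind UPF3 and to favour decay of the SMG5 mRNA and of the mRNA of its paralog DDX17.

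UPF1, UPF3A, UPF3B and SMG1 have annotated protein-coding forms that differ, among other places, by a stretch of coding sequence. The splice junctions at that stretch are printed here to show how the forms compared further down differ. They were read from the GENCODE 29 transcripts on GRCh38, 5′ to 3′ on the strand of the gene. Lower case marks the last 15 bases of the exon before the junction and capitals mark the first 15 bases of the exon after it.
UPF1-201: ccaagactgactctgACATGCGGCTCATGC
UPF1-207: taatttggttaagagACATGCGGCTCATGC
UPF3A-202: tccttgacagcaaagGCCTAGAATATCCTG
UPF3A-201: tccttgacagcaaagATCCAGAATATAAGA
UPF3B-201: gaaccaaagattaagGTACACAGGTTTCTG
UPF3B-202: gaaccaaagattaagCTGCTCAAGAAGCCA
SMG1-202: agaatgacgaaaaggGTGGCTACAGTGTCA
SMG1-211: agaatgacgaaaaggAGAGATCGATGTCTT
UPF1-207 uses a donor site further into exon 7 than UPF1-201 does and so holds 33 more bases (chr19:18853072-18853104), which add 11 codons. UPF3A-202 includes an exon of 99 bases, exon 4 (chr13:114286302-114286400), that UPF3A-201 skips, a difference of 33 codons. Exon 8 of UPF3B-201, of 39 bases (chrX:119840646-119840684), adds 13 codons that UPF3B-202 lacks. SMG1-202 includes exon 3, of 156 bases (chr16:18896052-18896207), which adds 52 codons and is skipped in SMG1-211. All of these stretches lie within the coding sequence and keep its reading frame. The SMG1 forms also differ at both transcript ends, with 10983 and 10653 coding bases, and each SMG1 junction occurs in 7 listed transcripts, pseudogene transcripts among them. The UPF3A-201 junction occurs in 4 listed transcripts, with transcripts of the genes UPF3AP1 and UPF3AP2 among them. Those of UPF1-201, UPF3A-202 and UPF3B-201 each occur in 2, and those of UPF1-207 and UPF3B-202 in 1.

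DDX5 itself was lower in every siDDX5 library. Its level was 1661, 1686 and 1340 TPM (a level scaled for transcript length and library total) in the control libraries and 795, 519.8 and 450.2 TPM in the siDDX5 libraries. The log2 fold change on counts was -1.44 (SE 0.15, edgeR adjusted p = 0.0106). That adjusted p rose to 0.0955 without control replicate 1, 0.0655 without siDDX5 replicate 1 and 0.0531 without siDDX5 replicate 2, and was 0.00205 once the replicate number entered the fit as a block. DDX17 was measured at 173.5, 198 and 199 TPM in the control and 253, 185 and 226 TPM in the siDDX5 libraries, with groups that overlapped. CPM are counts scaled to the library total as adjusted by TMM, a normalisation between libraries, and not scaled for length. In CPM, DDX17 was at 461.1, 488.7 and 537.7 in the control and 620.4, 554.5 and 608.2 in the siDDX5 libraries, all above the control. The log2 fold change of DDX17 was 0.26 (95% interval 0.02 to 0.50), and it did not pass the test (edgeR adjusted p = 0.405). Total estimated counts ran from 21265569 to 26156858 in the control and from 18202402 to 19971888 in the siDDX5 libraries, so every siDDX5 library was the shallower. Of the 8 myogenic markers checked, including MYOD1 and DES, none was at 0, and their summed level was 1180 to 1499 TPM in the control and 1135 to 1199 TPM in the siDDX5 libraries. The summed level of 3 leukocyte markers was 17.3 to 20.1 TPM in the control and 11.1 to 13.04 TPM in the siDDX5 libraries, most of it CD68, with CD3E at 0.0878 TPM or less. For 3 epithelial markers it was 0.737 to 1.15 TPM against 1.25 to 1.42 TPM, for 3 endothelial markers 5.47 to 7.27 TPM against 4.48 to 6.37 TPM, and for 3 fibroblast markers 15.6 to 18.04 TPM against 16.0 to 22.0 TPM. The part of depth and of these markers in the results below was not tested.

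All 9 NMD factors were expressed in Rh30, and none of them was called as changed by the knock-down of DDX5. The edgeR quasi-likelihood test called 0 of the 9 at a Benjamini-Hochberg adjusted p under 0.05, where it called 25 of 15223 genes, or 0.164%, in all. With the replicate block it again called 0 of the 9, against 394 genes, or 2.59%. At an unadjusted p under 0.05 the edgeR test found 0 of the 9 without the block and 2, UPF3B and SMG9, with it, where 1731 and 3125 of all genes passed. The DESeq2 Wald test and limma on log2(TPM + 1) also called 0 of the 9. The log2 fold changes ran from -0.24 for SMG9 to 0.25 for UPF3B, with 3 above 0 and 6 below, and their median was -0.03, where the median over all genes tested was -0.002. In TPM, 2 of the 9, UPF1 and SMG9, had groups that did not overlap, both lower in siDDX5, where 14.6% of all genes tested had groups that did not overlap in either direction.

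**Figure D1:**
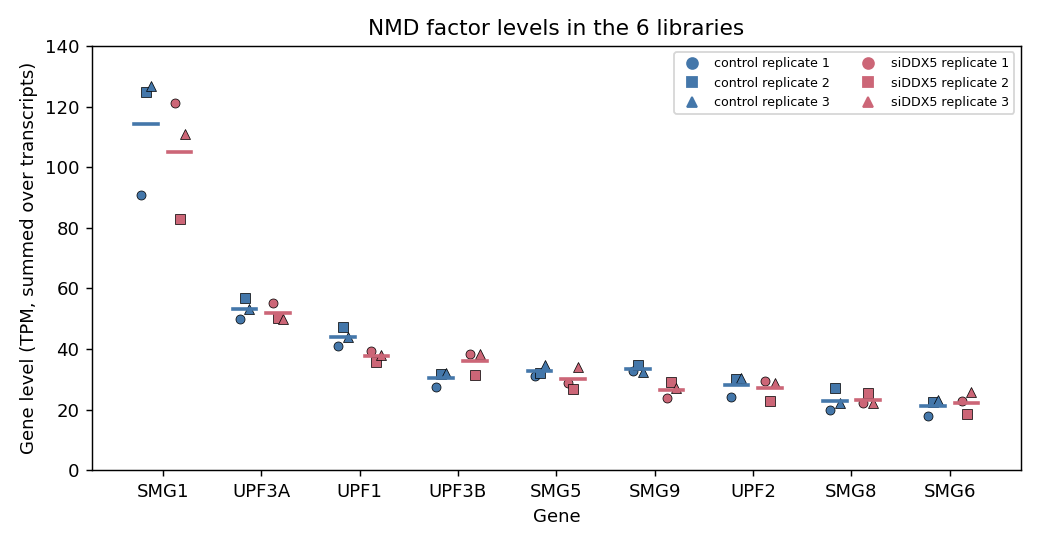
Level of each NMD factor in TPM (vertical axis, linear) in the 3 control (blue) and 3 siDDX5 (red) libraries, with a marker shape for each replicate number and a bar at each group's mean; genes are in order of their mean over the 6 libraries. SMG1 lies at 83.0 to 126.7 TPM and the other genes at 17.7 to 56.8 TPM, and the groups overlap for every gene except UPF1 and SMG9.

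The order of the levels over all 6 libraries was led by SMG1, with a mean of 109.6 TPM. UPF3A followed at 52.6 TPM and UPF1 at 40.9 TPM. The range of SMG1 did not overlap that of UPF3A, nor did the range of UPF3A overlap that of UPF1. From UPF1 downwards every neighbour's range overlapped the next, through UPF3B (33.3 TPM), SMG5 (31.3 TPM), SMG9 (30.0 TPM), UPF2 (27.6 TPM), SMG8 (23.1 TPM) and SMG6 (21.7 TPM). The order below SMG1 depended on the scale. In CPM, UPF3A was at 48.57 to 53.57, below UPF1 (116.5 to 136.9), SMG5, UPF2 and SMG6 in every library. SMG1-202, whose annotated coding sequence has 3661 codons, stood at 28.0 to 48.2 TPM. It held 31.8% to 40.8% of the gene's TPM and 79.3% to 85.7% of its estimated counts; TPM divides counts by transcript length.

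The helicase and its partners UPF2, UPF3A and UPF3B come first. UPF1 (chr19:18831938-18868236, plus strand, GRCh38) was measured at 41.05, 47.2 and 43.8 TPM in the control and 39.2, 35.8 and 38.1 TPM in the siDDX5 libraries. Every siDDX5 library was thus below every control library in TPM, with means of 44.0 ± 3.07 and 37.7 ± 1.74 TPM (SD, n = 3 each). In CPM, the scale closest to the counts tested, the groups overlapped at 133.4 ± 5.71 and 126.2 ± 9.92 (SD, n = 3 each). The log2 fold change was -0.08 in the fit to counts (SE 0.104, edgeR adjusted p = 0.818) and the log2 ratio of mean TPM was -0.22. The 95% interval of the log2 fold change was -0.31 to 0.15.

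UPF2, the scaffold between UPF1 and the UPF3 proteins (chr10:11920022-12043170, minus strand), showed 24.1, 30.1 and 30.5 TPM in the control and 29.6, 22.8 and 28.8 TPM in the siDDX5 libraries. Its groups overlapped almost fully, and the 95% interval of its fold change was 0.825 to 1.17 (log2 fold change -0.03, edgeR adjusted p = 0.956).

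UPF3A and UPF3B are paralogs that occupy the same place on UPF2, and UPF3B is the stronger activator of decay. UPF3A (chr13:114281584-114305817, plus strand) was at 50.02, 56.8 and 53.1 TPM in the control and 55.3, 50.07 and 50.04 TPM in the siDDX5 libraries, with no direction among them. Its fold change had a 95% interval of 0.848 to 1.15 (log2 fold change -0.02, edgeR adjusted p = 0.972). UPF3B (chrX:119805311-119852998, minus strand) was at 27.6, 31.9 and 32.1 TPM in the control and 38.3, 31.5 and 38.3 TPM in the siDDX5 libraries. In TPM, replicates 1 and 3 of siDDX5 were above all control libraries and replicate 2 was within their range. In CPM, UPF3B was at 32.86, 36.59 and 37.7 in the control and 44.35, 38.66 and 44.33 in the siDDX5 libraries, all above the control. Its log2 fold change of 0.25 (SE 0.115) was the highest of the 9 and did not pass the test (edgeR adjusted p = 0.457, or 0.204 with the block), and the 95% interval of the fold change was 0.994 to 1.42.

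The kinase SMG1 and its regulators SMG8 and SMG9 form a complex. SMG1 (chr16:18804853-18926454, minus strand) varied most between replicates, at 90.9, 124.7 and 126.7 TPM in the control and 121.1, 83.0 and 111 TPM in the siDDX5 libraries. The lowest control library and the lowest siDDX5 library were thus replicates 1 and 2, and the groups overlapped, with a 95% interval of 0.752 to 1.18 for the fold change (log2 fold change -0.09, SE 0.144, edgeR adjusted p = 0.857). SMG1 has pseudogene copies on the same chromosome, and 22.5% of the stretches of 31 bases in SMG1-202 also occur in transcripts of other genes, among them the SMG1P genes. The 7 SMG1P genes listed summed to 143.4, 154.8 and 184.9 TPM in the control and 171.8, 93.9 and 157.9 TPM in the siDDX5 libraries. Their lowest siDDX5 library was also replicate 2, and how reads were split between SMG1 and its copies is uncertain.

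SMG8 (chr17:59209400-59215247, plus strand) was at 19.8, 27.0 and 22.2 TPM in the control and 22.1, 25.4 and 22.3 TPM in the siDDX5 libraries. Replicate 2 was the highest in both groups, and the fold change had a 95% interval of 0.846 to 1.29 (log2 fold change 0.06, edgeR adjusted p = 0.9). SMG9 (chr19:43727992-43754990, minus strand) was at 32.6, 34.7 and 32.5 TPM in the control and 23.7, 28.99 and 27.2 TPM in the siDDX5 libraries. Every siDDX5 library was below every control library, and the log2 fold change of -0.24 (SE 0.119) was the lowest of the 9. It did not pass the test (edgeR adjusted p = 0.476, or 0.226 with the block), with a 95% interval of 0.702 to 1.01 for the fold change.

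The decay effectors SMG5 and SMG6 act after UPF1 is phosphorylated. SMG5 (chr1:156249224-156282825, minus strand), described elsewhere as an mRNA whose decay DDX5 favours, was at 31.1, 32.2 and 34.7 TPM in the control and 28.7, 27.0 and 34.2 TPM in the siDDX5 libraries. Its groups overlapped, and its sign depended on the scale: the log2 fold change was 0.05 on counts (SE 0.099, edgeR adjusted p = 0.883; 95% interval of the fold change 0.889 to 1.21) and -0.12 as a log2 ratio of mean TPM. SMG6 (chr17:2059839-2303771, minus strand) was at 17.7, 22.4 and 23.2 TPM in the control and 22.8, 18.5 and 25.7 TPM in the siDDX5 libraries. Its sign also differed, with a log2 fold change of -0.05 on counts (edgeR adjusted p = 0.878; 95% interval of the fold change 0.828 to 1.12) and 0.08 as a log2 ratio of mean TPM. SMG6 overlaps HIC1 on the opposite strand, and HIC1 was at 0.502 to 0.84 TPM in all libraries.

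**Figure D2:**
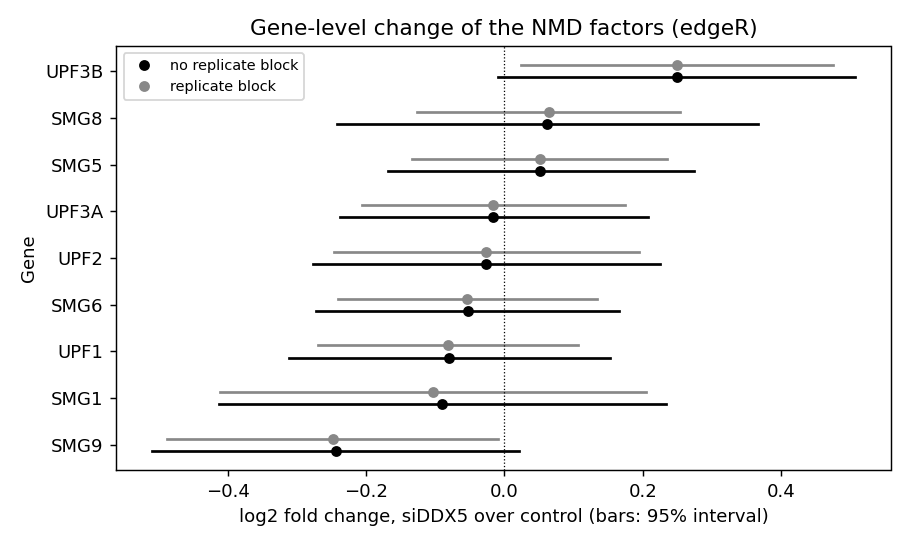
Log2 fold change of each NMD factor in siDDX5 over control (horizontal axis, points) with its 95% interval (lines) from the edgeR fit without (black) and with (grey) the replicate block. Without the block all 9 intervals include 0; with the block those of UPF3B (0.25) and SMG9 (-0.25) do not, and neither has an adjusted p under 0.05.

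The 9 genes have 95 transcripts in the tables, of which 48 had enough counts to test one by one. The edgeR test called 0 of the 48, where it called 0 of 61666 transcripts, or 0%, in all. At an unadjusted p under 0.05 it found 5 of the 48 (1 higher, 4 lower; 4 of 48 with the block), against 7.08% of all transcripts. The DESeq2 Wald test called 807 transcripts in all and 2 of the 48, SMG6-207 and SMG1-211. It gave many of the 48 no adjusted p, UPF2-203 and UPF1-211 among them. With limma on log2(TPM + 1), 53 member transcripts with a mean of at least 1 TPM were tested and 0 were called. SMG1-211 and UPF2-203 were below that mean and were not in the limma test. The share of the gene's TPM held by a transcript did not overlap between groups for 10 of the 48, 4 higher and 6 lower, where 14.1% of all transcripts tested did not overlap.

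UPF2, UPF3B, SMG5 and SMG8 were each carried mainly by 1 coding transcript in both groups. UPF2-202 held 80.7% to 89.9% of the UPF2 level, UPF3B-202 76.6% to 85.8% of UPF3B, and SMG8-201 89.4% to 97.2% of SMG8. SMG5-201 stood at 24.6, 25.6 and 26.4 TPM in the control and 26.1, 24.5 and 28.0 TPM in the siDDX5 libraries, so the coding SMG5 transcript overlapped fully between groups. SMG6-201, the full-length coding form of SMG6, was at 12.6, 12.3 and 12.3 TPM in the control and 12.4, 9.03 and 11.4 TPM in the siDDX5 libraries. UPF1 was divided between UPF1-201, at 17.97 to 22.3 TPM, and UPF1-207, at 6.06 to 9.60 TPM. In SMG9 the order of the transcripts depended on the scale. The retained-intron transcript SMG9-210, of 538 bases, led in TPM at 7.50 to 12.5 TPM and held 6.78% to 10.9% of the gene's counts, where the coding SMG9-211 held 30.7% to 41.3% and the coding SMG9-201 36.9% to 47.4%. SMG9-211 was at 8.06, 7.36 and 7.90 TPM in the control and 5.47, 4.98 and 6.17 TPM in the siDDX5 libraries. All siDDX5 values of SMG9-211 were below all control values, with a log2 fold change of -0.43 that did not pass the test (edgeR adjusted p = 0.684).

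The other transcripts of highest level were mostly short or intron-retaining. In UPF3A, whose coding form UPF3A-202 was at 10.5 to 14.2 TPM, the retained-intron transcript UPF3A-211 held 18.3%, 18.3% and 17.5% of the gene in the control and 15.3%, 15.3% and 15.7% in the siDDX5 libraries, without overlap. The retained-intron transcript UPF3A-212 was at 7.07 to 11.2 TPM and the processed transcript UPF3A-204 at 4.99 to 12.1 TPM, and both overlapped between groups. In SMG9 the retained-intron transcript SMG9-207 was at 6.78, 7.78 and 7.36 TPM in the control and 3.93, 5.60 and 3.99 TPM in the siDDX5 libraries. It was lower in every siDDX5 library and was not called (edgeR log2 fold change -0.60, adjusted p = 0.77), while the longest SMG9 transcript, the coding SMG9-201, was at 2.89 to 3.34 TPM with overlapping groups. As a share of the gene's counts SMG9-201 was at 40.3%, 36.9% and 40.2% in the control and 47.4%, 46.9% and 43.1% in the siDDX5 libraries, without overlap. In SMG1 the retained-intron transcript SMG1-217 was at 10.4 to 21.4 TPM, the processed transcript SMG1-213 at 10.5 to 19.0 TPM and the short coding-annotated SMG1-212 at 3.65 to 11.6 TPM. All of these SMG1 transcripts overlapped between groups. The same held for UPF1-213 (1.55 to 5.13 TPM), UPF1-204 (1.01 to 2.60 TPM), UPF2-204 (1.13 to 4.07 TPM), UPF3B-205 (1.28 to 3.56 TPM), UPF3B-203 (0.677 to 1.76 TPM), SMG5-203 (1.40 to 4.06 TPM), SMG5-202 (0 to 2.48 TPM), SMG5-204 (0.279 to 1.55 TPM), SMG6-218 (0 to 2.97 TPM), SMG6-214 (0 to 2.57 TPM) and SMG8-203 (0.121 to 1.77 TPM).

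Transcript usage, the division of a gene's counts among its transcripts, was called as changed in UPF2 and SMG1. These are 2 of the 9 genes at an adjusted p under 0.05 in the edgeR diffSpliceDGE test, which called 170 of 10704 genes, or 1.59%, in all. The adjusted p was 7.41e-05 for UPF2 and 3.45e-08 for SMG1, and 0.00391 and 6.7e-06 with the block. In both genes the call came from a coding transcript of low level that was present in all control libraries and listed at 0 in all siDDX5 libraries. The other 7 members had an adjusted p of 1.

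UPF2-203 was at 1.68, 1.33 and 0.597 TPM in the control libraries, or 127.6, 85.3 and 41.8 estimated counts, and was listed at 0 in every siDDX5 library. It held 6.95%, 4.41% and 1.96% of the UPF2 level in control replicates 1, 2 and 3. UPF2-203 differs from the main transcript UPF2-202 by its first exon, at chr10:12042914-12043170 in place of chr10:12042755-12042834, and codes for the same 1272 codons, so the difference lies before the coding sequence. None of the 5339 stretches of 31 bases in UPF2-203 is found in it alone among the listed transcripts. No single stretch of that length thus sets it apart, and how its reads were divided among transcripts was not examined. The processed transcript UPF2-204 starts at the same base as UPF2-203, chr10:12043170, and was not at 0 in the siDDX5 libraries. It stood at 1.13 to 4.07 TPM in the control and 2.17 to 3.11 TPM in the siDDX5 libraries, with overlapping groups. UPF2-204 also has 0 stretches found in it alone. Whether use of that start changed was not tested. The call depended on single libraries: the adjusted p in edgeR was 0.0783 without control replicate 1, 0.0762 without siDDX5 replicate 1 and 0.118 without siDDX5 replicate 3. As a transcript taken alone UPF2-203 was not called by edgeR (adjusted p = 0.259), and DESeq2 gave it no adjusted p.

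SMG1-211 was at 0.223, 1.99 and 2.26 TPM in the control libraries, or 40.6, 304.6 and 379.2 estimated counts, and was listed at 0 in every siDDX5 library. Control replicate 1 was the lowest of the control libraries by a wide margin, so the control group itself was spread. The transcript starts downstream of SMG1-202, skips the exon of 52 codons described above and codes for 3551 codons. Of its 12435 stretches of 31 bases, 0 are found in it alone among the listed transcripts. The junction printed for SMG1-211 occurs in 7 listed transcripts, of which 4 belong to the pseudogenes SMG1P1 and SMG1P4. Among the others are SMG1-201 and SMG1-205, which were not at 0 in the siDDX5 libraries: SMG1-205 stood at 7.19, 9.87 and 8.36 TPM in the control and 6.05, 6.61 and 7.23 TPM in the siDDX5 libraries. The usage call for SMG1 was made under each alternative run, with an adjusted p in edgeR from 4.54e-10 to 6.84e-05 when single libraries were left out. As a transcript taken alone SMG1-211 was not called by edgeR (adjusted p = 0.367) and was called by DESeq2 (adjusted p = 1.07e-08).

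**Figure D3:**
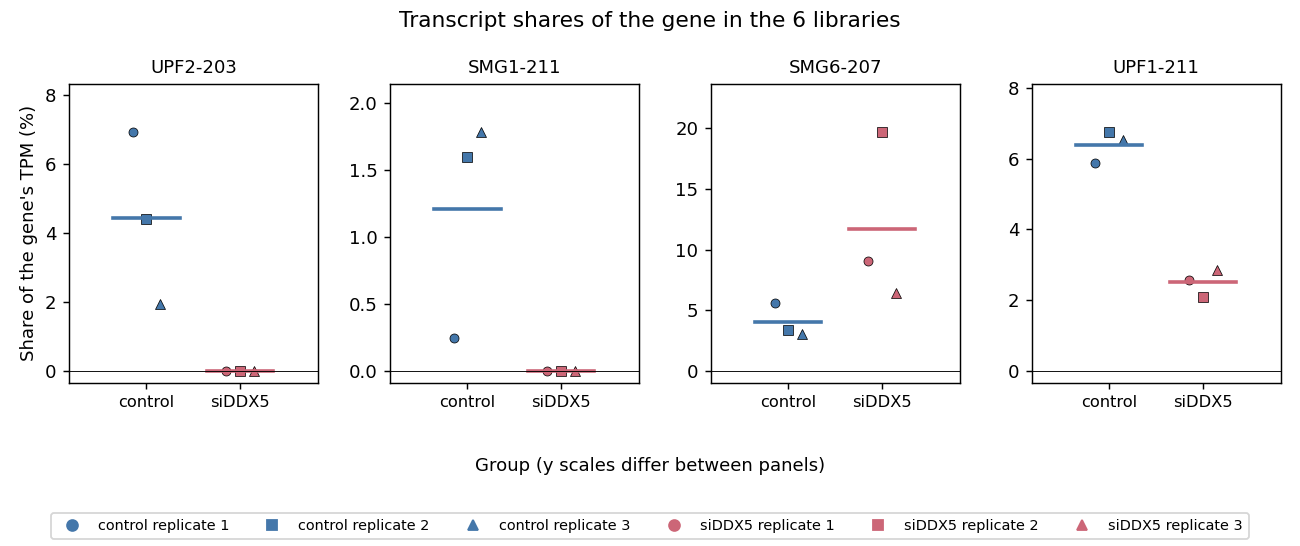
Share of the gene's TPM (vertical axes, percent, a separate scale in each panel) held by UPF2-203, SMG1-211, SMG6-207 and UPF1-211 in each control (blue) and siDDX5 (red) library, with bars at group means. UPF2-203 and SMG1-211 are at 0 in all 3 siDDX5 libraries, SMG6-207 is higher in siDDX5 and UPF1-211 is lower, without overlap in any of the 4 panels.

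SMG6-207 and UPF1-211 have no annotated coding sequence, and their shares did not overlap either. SMG6-207, annotated as a processed transcript from the 3′ part of the gene, was at 1.00, 0.758 and 0.703 TPM in the control and 2.06, 3.64 and 1.65 TPM in the siDDX5 libraries. Its share of the SMG6 level was 4.02% ± 1.42 in the control and 11.7% ± 7.03 in the siDDX5 libraries (SD, n = 3 each), with siDDX5 replicate 2 the highest at 19.7%. It did not pass the edgeR test (log2 fold change 1.66, SE 0.41, adjusted p = 0.516) and was called by DESeq2 (adjusted p = 0.0262), and 71.7% of its stretches of 31 bases also occur in transcripts of other genes. UPF1-211, a short processed transcript of 4 exons within the gene, was chosen after its values were seen. It was at 2.41, 3.19 and 2.86 TPM in the control and 1.01, 0.747 and 1.09 TPM in the siDDX5 libraries, on 16.9 to 18.5 and 4.07 to 5.30 estimated counts. Its share of the UPF1 level was 6.38% ± 0.464 and 2.51% ± 0.395 (SD, n = 3 each), and it was not called (edgeR log2 fold change -1.57, SE 0.415, adjusted p = 0.546).

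The pairs of forms whose junctions are printed above were compared as the share of 1 form in the sum of both, a choice made after the values were seen. UPF1-207, the longer form, made up 27.2%, 32.9% and 30.4% of the pair in the control and 23.1%, 22.7% and 30.6% in the siDDX5 libraries. Replicate 3 of siDDX5 was within the control range and the other siDDX5 libraries were below it (two-sided exact permutation p = 0.3, where 0.1 is the smallest that 3 against 3 libraries allow). UPF3A-201, which skips exon 4 and with it part of the domain that binds UPF2, made up 30.5%, 30.3% and 24.9% in the control and 28.3%, 24.7% and 9.89% in the siDDX5 libraries. The low value is siDDX5 replicate 3 alone, and the groups overlapped (exact permutation p = 0.2). UPF3B-201, which includes exon 8, was the minor form throughout, at 11.6%, 9.45% and 7.50% in the control and 9.91%, 11.2% and 4.82% in the siDDX5 libraries (exact permutation p = 0.8). The pairs in UPF1, UPF3A and UPF3B thus kept the same major form in all 6 libraries. SMG1-211 made up 0.597%, 4.79% and 5.19% of its pair with SMG1-202 in the control and was listed at 0 in the siDDX5 libraries (exact permutation p = 0.1). Little sequence is particular to most of these forms: 62 and 70 stretches of 31 bases are found in UPF1-207 alone and UPF1-201 alone, 28 in UPF3A-202 alone and 0 in UPF3A-201 alone. In the SMG1 pair 3076 are found in SMG1-202 alone and 0 in SMG1-211 alone.

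Annotated transcript types divided the members in TPM into those that are almost wholly coding and those with much retained-intron or other non-coding RNA. Coding transcripts held 94.5% to 97.9% of the UPF3B level, 95.2% to 100% of SMG8 and 86.5% to 95.3% of UPF2. Retained-intron transcripts held 62.4% to 69.2% of the SMG9 level in TPM but 15.8% to 21.9% of its estimated counts, where coding transcripts held 77.5% to 83.9%. In UPF3A they held 30.6% to 37.9% of the TPM and 27.5% to 36.3% of the counts, so the large part of non-coding RNA was seen on both scales. The test of usage by transcript type called 0 of the 7 members that could be tested (edgeR diffSpliceDGE), where it called 26 of 8551 genes, or 0.304%. Among the 7, only SMG6 had an unadjusted p under 0.05 (edgeR adjusted p = 0.924), and UPF3B and SMG8 could not be tested because fewer than 2 types had enough counts. Transcripts annotated as NMD substrates were rare: only SMG1-214, SMG8-205 and SMG9-206 carry that annotation among the 95, and none had a mean of 0.5 TPM or more. SMG8-205, the highest of them, was at 0.231, 1.10 and 0.324 TPM in the control and 0, 1.21 and 0 TPM in the siDDX5 libraries.

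The 7 members have 18 type shares that could be tested. In TPM 8 of the 18, 3 higher and 5 lower, did not overlap between groups, where 13% of all type shares tested did not. As shares of counts 3 of the 18 did not overlap, 2 higher and 1 lower, where 14.3% of all did not. Several shares of a gene move together because they add up to the whole, and none of these genes passed the test.

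SMG6 and the other types of UPF3A were without overlap on both scales. In SMG6 the coding share of TPM was 77.5%, 74.8% and 80.5% in the control and 73.6%, 73.2% and 72.0% in the siDDX5 libraries. Its coding share of counts was 93.3%, 92.9% and 93.1% in the control and 89.7%, 82.5% and 88.9% in the siDDX5 libraries, and that of other non-coding types, which include SMG6-207, was 5.71%, 6.42% and 5.36% against 10.3%, 16.2% and 10.4%. Replicate 2 of siDDX5 stood farthest from the control. In UPF3A the share of other non-coding types was 28.0%, 25.9% and 27.6% of the TPM in the control and 33.9%, 33.9% and 43.5% in the siDDX5 libraries, and 19.9%, 15.5% and 17.4% against 21.4%, 21.1% and 34.1% of the counts. Replicate 3 of siDDX5 stood apart from the other libraries.

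The remaining type shares without overlap were so in TPM alone. In SMG5 the coding share of TPM was 79.2%, 79.7% and 76.1% in the control and 91.0%, 90.9% and 81.9% in the siDDX5 libraries, and the retained-intron share was 17.5%, 18.2% and 20.9% against 8.14%, 8.17% and 17.3%. As a share of counts the coding transcript of SMG5 held 98.3%, 97.6% and 97.5% in the control and 99.1%, 98.8% and 97.7% in the siDDX5 libraries, with overlap, so the separation rests on short transcripts with few counts. The coding share of UPF3A in TPM was 39.6%, 36.2% and 39.0% in the control and 35.2%, 35.5% and 23.7% in the siDDX5 libraries. The retained-intron share of TPM was lower in siDDX5 for UPF1, at 8.50% to 10.6% against 7.71% to 8.43%, and for SMG1, at 29.8% to 32.0% against 27.7% to 29.7%.

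**Figure D4:**
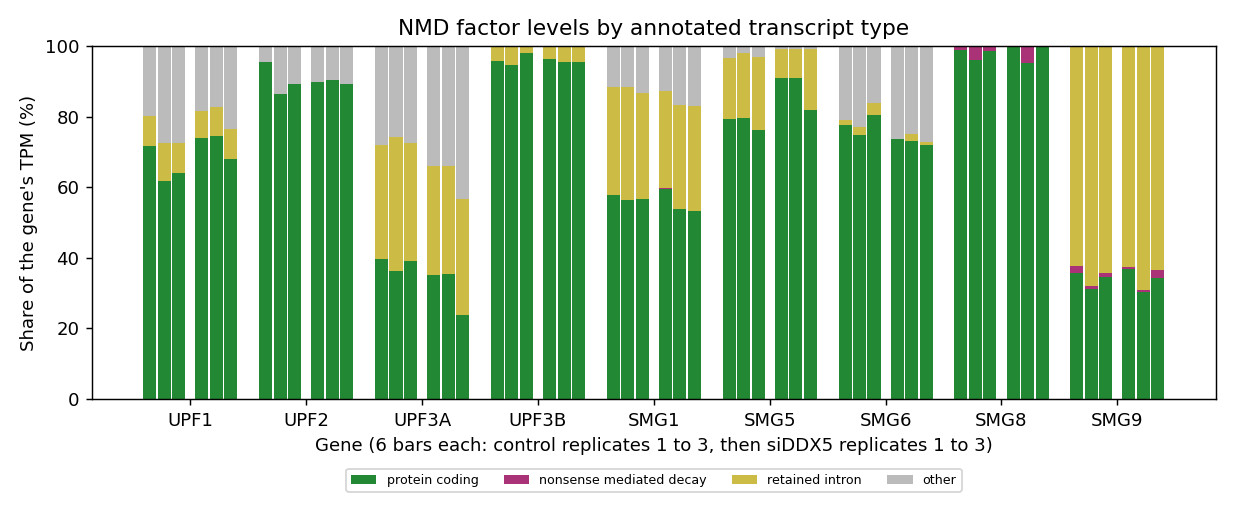
Share of each NMD factor's TPM (vertical axis, percent) held by transcripts annotated as protein coding (green), nonsense mediated decay (purple), retained intron (yellow) and other types (grey), with 6 bars a gene for control replicates 1 to 3 and then siDDX5 replicates 1 to 3. Retained-intron transcripts hold 62.4% to 69.2% of the SMG9 TPM, and the coding share of SMG5 is 76.1% to 79.7% in the control and 81.9% to 91.0% in the siDDX5 bars.

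Other genes of the pathway were read from lists written with earlier results of these data known, and are given as counts. Among 8 further NMD factors, which include the helicase MOV10, edgeR called 0 without the block, with a median log2 fold change of 0.04 and a range from -0.23 (RUVBL2, adjusted p = 0.651) to 0.44 (PNRC2). PNRC2, which links UPF1 to the decapping machinery, was at 84.0, 108 and 96.9 TPM in the control and 125.7, 115.1 and 130.8 TPM in the siDDX5 libraries, all above the control. Its edgeR adjusted p was 0.233 without and 0.0486 with the replicate block, and it was called by DESeq2 (adjusted p = 0.0497). Of 10 exon junction complex genes 0 were called (median 0.06), and the highest was EIF4A3, the helicase that anchors the complex, at 0.26 (edgeR adjusted p = 0.447), and the lowest PYM1, which takes the complex apart, at -0.05. Of 7 genes of translation termination and cap binding 0 were called (median 0.09), from -0.27 for NCBP1, a subunit of the nuclear cap-binding complex (edgeR adjusted p = 0.333), to 0.24 for ETF1, which encodes the release factor eRF1. At an unadjusted p under 0.05 edgeR found 2, 0 and 1 genes of these lists, where 11.4% of all genes tested passed. DESeq2 called 1, 0 and 0 of them and limma on log2(TPM + 1) called none.

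Among 10 genes of the decay machinery and of the phosphatase PP2A, 1 was called higher and 0 lower. It was DCP2, the catalytic subunit of the decapping enzyme. DCP2 was at 22.1, 24.4 and 31.7 TPM in the control and 50.2, 38.8 and 41.9 TPM in the siDDX5 libraries, with every siDDX5 library above every control library. On counts it rose by 1.15 on the log2 scale, with an SE of 0.157 and an edgeR adjusted p of 0.0294, or 0.00208 under the replicate block. In TPM the change was smaller, with an adjusted p of 0.312 in limma on log2(TPM + 1) and a log2 fold change of 0.73. The adjusted p of DCP2 in edgeR was 0.18, 0.0524, 0.108, 0.085 and 0.0866 without control replicate 1, control replicate 2, siDDX5 replicate 1, siDDX5 replicate 2 and siDDX5 replicate 3, and 0.0196 without control replicate 3. The median log2 fold change of the list was -0.02, and its lowest value was -0.27 for XRN1, the exonuclease that degrades decapped RNA (edgeR adjusted p = 0.592). At an unadjusted p under 0.05 edgeR found 4 of the 10, DCP2, PPP2CA and PPP2R5A higher and DCP1A lower, where 11.4% of all genes tested passed. PPP2CA and PPP2R5A encode subunits of PP2A and not decay enzymes.

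No gene was called among those with mRNAs or splice forms known as NMD substrates in human cells. Counts were summed over each gene, so the test does not single out the forms that NMD removes. Of 24 on the list 19 were listed and tested, and the host genes SNHG1, SNHG12, SNHG15, GAS5 and ZFAS1 were not analysed here. edgeR called 0 of the 19 with or without the block. DESeq2 and limma on log2(TPM + 1) called 0, and 1 passed an unadjusted p under 0.05 in edgeR. The log2 fold changes were above 0 in 16 and below 0 in 2, where 7557 of all genes tested were above 0 and 7666 below. Their median in the list was 0.08, where the median over all genes tested was -0.002. The list holds stress-response genes such as ATF4 and splicing factors such as SRSF2, whose unproductive splice forms are removed by NMD, and TBL2 was the lowest at -0.03. GADD45B, a stress-response gene, was the highest at 0.53 (SE 0.214, edgeR adjusted p = 0.396). It was at 41.6, 40.9 and 40.4 TPM in the control and 47.0, 75.6 and 47.8 TPM in the siDDX5 libraries, so its mean rested largely on siDDX5 replicate 2.

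**Figure D5:**
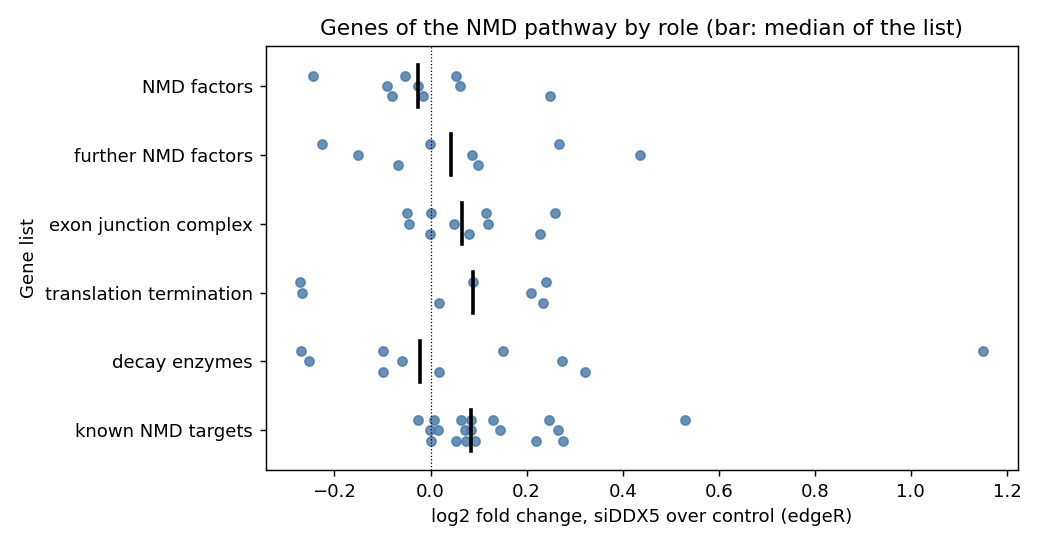
Log2 fold change in siDDX5 over control from the edgeR fit (horizontal axis) of each gene tested (points) in 6 lists of the pathway, with a black bar at the median of each list. The medians lie between -0.03 and 0.09, and the point farthest to the right is DCP2 at 1.15.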

How the data were processed

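Transcript abundance was measured in 6 libraries of Rh30 cells, made from TRIzol-extracted RNA with a TruSeq stranded mRNA kit, per the labels' protocols. Per the submitters' processing notes, bcl2fastq 2.20, FastQC 0.11.8, cutadapt 1.11 and kallisto 0.46.0 were used, with builds GRCh38 and hg38. The annotation and the strand setting are not given in the sources used here. For 188753 transcripts the authors deposited the length, estimated count and TPM. The deposited estimated counts were not normalised, and 90.3% to 91.1% of those above 0 differed from a whole number by more than 0.001. The TPM values were scaled by the authors for transcript length and library total.

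Transcripts were joined to genes through GENCODE 29, 169797 by identifier, 15315 by symbol and 890 by position, which held 99.59% to 99.63% of the counts. Counts were summed per gene, rounded, filtered with filterByExpr, scaled by TMM and compared by the quasi-likelihood test of edgeR 4.0.16 under R 4.3.3 (glmQLFit, glmQLFTest) with no covariate beside the group. A gene was called at an adjusted p under 0.05 over all genes tested. Usage was tested with diffSpliceDGE. Intervals are 95% and come from the edgeR fit. A count of 3 corresponded to 0.115 to 0.165 CPM, and neither interval nor SD holds the uncertainty of dividing shared reads. The fits were tested on simulated counts, which did not include the division of shared reads among transcripts.

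Libraries with the same number in their titles deviated together from their group means, with correlations of 0.21, 0.27 and 0.58 over 15223 genes, so a fit with the number as a block is given where it changes a call. The labels do not state what the numbers share.

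All 9 members, up to 4 transcripts of each by mean TPM (at least 0.5), those that decided a usage call, and the called, highest and lowest genes of each list were named, and any other name was picked with its values in view. The members, lists and markers were chosen with earlier results of these data known, and 1 gene of the list of further NMD factors is not reported here. Alternatives were DESeq2 size factors, the DESeq2 1.42.0 Wald test, other filters on low counts, length-scaled TPM counts, limma-trend (limma 3.58.1) on log2(TPM + 1) and log2(TPM + 0.1) with a mean of at least 1 TPM, the block, and leaving out each library. Counts of stretches of 31 bases cover both strands of the listed transcripts found in GENCODE 29, and the length the authors' index used is not given in the sources used here.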

Additional observations from a re-analysis of the deposited data

How the results depend on the processing

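No NMD factor gene was called under any of the alternatives run, and no usage by transcript type. The number of genes called in all moved from 25 to 136 with no filter, 2 with length-scaled TPM counts, 394 with the replicate block, 323 in DESeq2 and 1 in limma with either pseudocount. Leaving out single libraries gave 0 to 15, with 0 without control replicate 1 or siDDX5 replicate 1. The block changed no other call among the values of the NMD factors. DESeq2 called 2 NMD factor transcripts against 0. Genes with changed usage fell from 2 to 1 with a mean of at least 50 counts, where UPF2 could not be tested, and were 1 to 2 when single libraries were left out. The log2 fold change of DDX5 was -1.37 with length-scaled TPM counts (adjusted p = 0.0667 in edgeR), -1.44 in limma on log2(TPM + 1) (0.0849) and -1.45 on log2(TPM + 0.1) (0.0927), and -1.54 to -1.30 without single libraries. Signs reversed, with no call, for UPF3A (0.009), SMG5 (-0.073) and SMG6 (0.128) with length-scaled TPM counts, and for SMG5 (-0.125 and -0.129) and SMG6 (0.075 and 0.078) in limma with the larger and smaller pseudocount. Without single libraries the range was -0.087 to 0.043 for UPF2, -0.037 to 0.029 for UPF3A, -0.235 to 0.036 for SMG1 and -0.037 to 0.182 for SMG8. The causes were not tested. Some short transcripts rested on few counts, such as UPF1-211 with 4.07 to 5.30 estimated counts in the siDDX5 libraries.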

Other observations

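Ratios of paired members within a library were chosen after the values were seen. UPF3B and SMG9, the members with the highest and lowest log2 fold change, are denominators here. Their ratios therefore restate in part the values given above. How often ratios of other gene pairs do not overlap between groups was not counted. The ratio of UPF3A to UPF3B, the paralogs that share a binding place on UPF2, was 1.81, 1.78 and 1.66 in the control libraries and 1.45, 1.59 and 1.31 in the siDDX5 libraries (TPM over TPM). Every siDDX5 library was below every control library. The ratio of SMG8 to SMG9, the pair that restrains SMG1, was 0.608, 0.778 and 0.682 in the control and 0.932, 0.875 and 0.821 in the siDDX5 libraries, all of them above the control. The ratios of SMG5 to SMG6 and of UPF1 to UPF2 overlapped between groups, at means of 1.56 ± 0.167 and 1.35 ± 0.101 and of 1.57 ± 0.133 and 1.41 ± 0.144 (SD, n = 3 each). No test was run on these ratios, which use TPM summed over all transcript types. Coding transcripts held 23.7% to 39.6% of the UPF3A TPM and 94.5% to 97.9% of the UPF3B TPM. For SMG8 and SMG9 the coding shares were 95.2% to 100% and 30.4% to 36.9%. The ratios are thus not those of the coding transcripts.

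UPF1-212, a short transcript annotated as retained intron that shares the UPF1-201 junction printed above, was picked after its values were seen. It was at 0.834, 1.07 and 1.07 TPM in the control libraries and was listed at 0 in every siDDX5 library. It rested on 5.34, 5.74 and 6.34 estimated counts in the control libraries and was not tested. How often transcripts with so few counts are at 0 in all siDDX5 libraries alone was not counted.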
